A study of Homo sapiens with 4 samples.

Results

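The DUSP, SPRY and SPRED genes described here encode inhibitors that MAP kinase signalling switches on against itself. They were DUSP1, DUSP4, DUSP5, DUSP6, DUSP10, SPRY1, SPRY2, SPRY4, SPRED1 and SPRED2. Members were the probe sets that name 1 of these genes and no other, 29 of the 44988 single-gene probe sets, and they covered all 10 genes of 18132 in all. Gene expression was read on 4 arrays of LNCaP, a human prostate cancer cell line that responds to androgen. On 2 of the arrays the cells had received exosomes, small vesicles released by cells, and the donor was PC-3, an androgen-independent prostate cancer line. On the other 2 the cells had received PBS, a buffer, as the control. Both groups grew in RPMI-1640 with 10% fetal bovine serum, and the sources used here give no dose, exposure time or exosome preparation. Nothing in the labels says that the arrays of a group came from separate cultures, so each p-value measures only the spread between these arrays, which may be technical.

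MAP kinase cascades carry signals from receptors at the cell surface to the nucleus: RAS activates RAF, RAF activates MEK and MEK activates ERK, while parallel cascades end in p38 and JNK. Active ERK induces transcripts whose products shut the route down again. Dual-specificity phosphatases (DUSPs) remove both activating phosphates from the kinases, Sprouty proteins (SPRY) act near the receptor and RAF, and SPRED proteins bring the RAS inhibitor neurofibromin to the membrane. Levels of DUSP6, SPRY2 and SPRY4 are widely read as a transcript measure of ERK output.

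Some of these genes are immediate early genes, whose promoters carry sites for factors already present in a resting cell. The promoter of DUSP1 is the textbook case and is shown for that reason, as the 88 bases around its cyclic AMP response element (CRE, letters TGACGTCA), which stands in capitals. The stretch lies on the minus strand at chr5:172771273-172771360 of RefSeq's GRCh38.p14, all of it before the start site, and the element begins 125 bases before it.

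DUSP1: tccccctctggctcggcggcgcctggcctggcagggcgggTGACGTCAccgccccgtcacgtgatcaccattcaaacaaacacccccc

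RefSeq windows of 300 bases, 250 before a start site and 50 after it, were held for 8 of the 10 genes, 13 windows in all, and were searched on both strands. DUSP4 and DUSP5 had no window, so the counts below do not cover them. The CRE was in 1 of the 13 and in 1.85% of 35116 windows of all genes. The AP-1 site TGANTCA was in 1 of the 13, a window of SPRED2, and in 7.71% of all. The C/EBP-ATF site TGATGNAA was in that same SPRED2 window and in 3.62% of all. The ETS site CCGGAAGT and the CArG box, bound by serum response factor, were in 0 of the 13, against 4.14% and 1.29% of all. A match describes letters only, and no binding was measured.

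None of the 10 members changed past the threshold after PC-3 exosomes. Each gene was represented by its brightest probe set, and differences are of log2(value + 1), exosomes minus PBS. By limma, with p-values adjusted over all 18132 genes by the Benjamini-Hochberg method and a threshold of 0.05, 0 of 10 passed, while 0.888% of all genes did. At an unadjusted p under 0.05, DUSP5 and DUSP6 were higher (2 of 10, against 5.76% of all genes) and SPRY1 was lower (1 of 10, against 5.16% of all genes). DUSP6 counted only narrowly, at a limma p of 0.048. That p was 0.051 with a robust variance model and 0.091 with the replicate number as a block. The lowest adjusted p of a member was 0.177, for SPRY1. The differences ran from -0.18 to 0.26 on the log2 scale with a median of -0.075, and 7 of 10 were below 0, against a median of -0.012 and 56.0% below 0 over all genes. Every member's 95% interval lay between -0.39 and 0.47, so that none of the 10 intervals reached a doubling or a halving. These intervals rest on the variance model of the fit, since with 2 arrays a group the smallest two-sided p of an exact permutation test is 0.333.

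**Figure D1:**
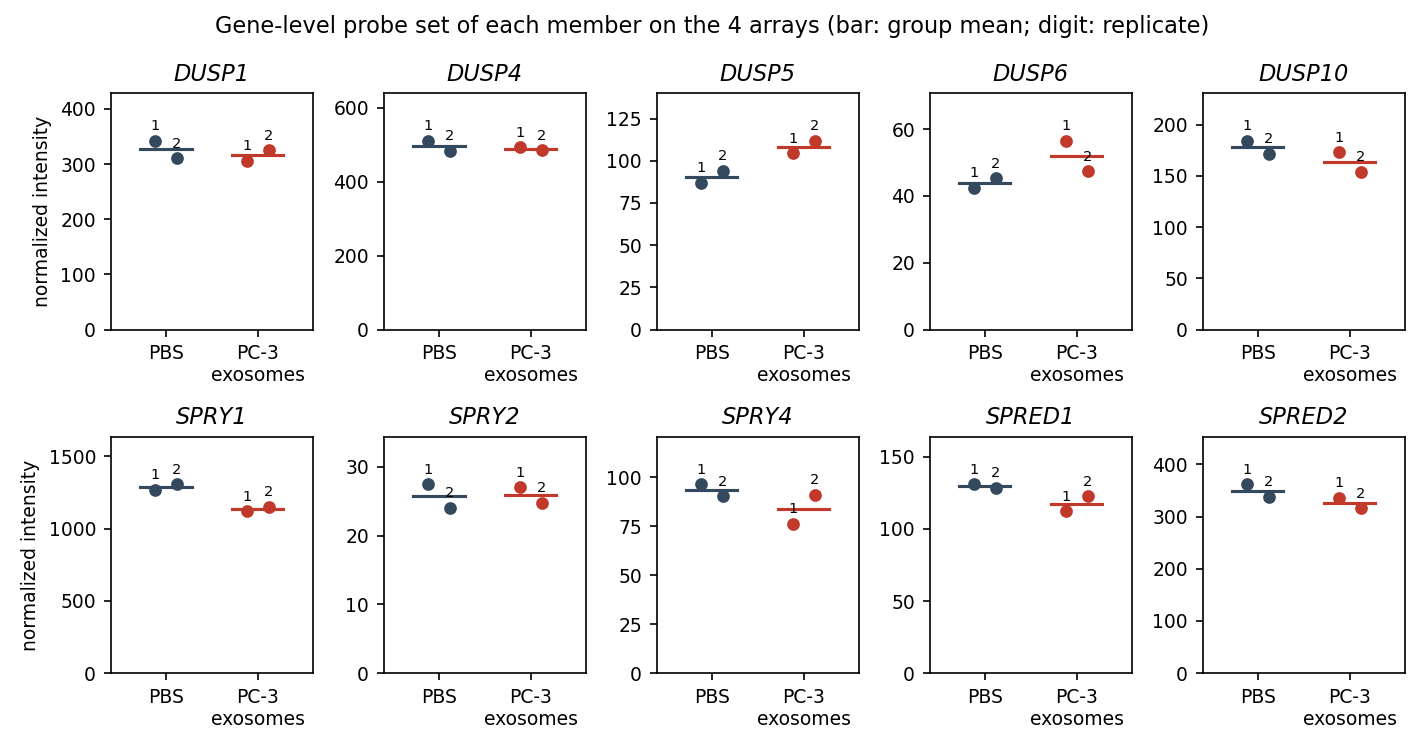
Normalized intensity (vertical axes, starting at 0, a scale per gene) of the probe set that stands for each of the 10 members, on the 2 PBS arrays and the 2 PC-3 exosome arrays. Points are arrays with their replicate number and bars are group means. The exosome arrays lie above the PBS arrays for DUSP5 and DUSP6, and below them for SPRY1, SPRED1 and SPRED2.

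Among the phosphatases that act on ERK alone, DUSP5, which works in the nucleus, had the highest difference of the 10. Its only probe set read 104.6 and 111.8 with exosomes and 87.1 and 94.0 with PBS, so each exosome array lay above each PBS array. That is 108 ± 5.13 against 90.5 ± 4.90 (SD, n = 2 each), a 1.19-fold difference with a 95% interval of 1.04 to 1.37 (log2 0.26, SE 0.086, limma adjusted p = 0.301). DUSP6, the cytoplasmic ERK phosphatase, read 56.5 and 47.5 with exosomes, against 42.5 and 45.3 with PBS. Its groups did not overlap, but exosome replicate 2 lay closer to PBS replicate 2 than to the other exosome array. The fold was 1.18, with an interval of 1.00 to 1.38 (log2 0.23, SE 0.10, limma adjusted p = 0.454), and the log2 difference was 0.11 without exosome replicate 1 and 0.36 without exosome replicate 2.

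DUSP6 was measured by 4 probe sets, and in all 4 the difference was above 0. In the 3 that do not stand for the gene it was 0.047, 0.089 and 0.096, and in 2 of them the exosome arrays lay above the PBS arrays. Those 3 probe sets read between 19.4 and 37.8, below the 25th percentile of every array, which was 38.7 to 39.9. As the mean of its probe sets DUSP6 had a log2 difference of 0.12 (limma adjusted p = 0.600).

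The other phosphatases also act on the stress-activated kinases. DUSP1, induced early by growth factors and stress and able to act on p38, JNK and ERK, read 306.2 and 325.6 with exosomes and 342.4 and 311.1 with PBS. These groups overlapped, with a log2 difference of -0.048 (SE 0.074, 95% interval -0.21 to 0.12, limma adjusted p = 0.887). Its 4 probe sets lay between -0.11 and -0.00078. DUSP4, a nuclear phosphatase also induced by ERK, read 493.0 and 484.9 with exosomes and 511.2 and 484.1 with PBS. Its interval, -0.16 to 0.11, was the narrowest of the 5 phosphatases and its difference, -0.025, the smallest of them (limma adjusted p = 0.939).

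The probe sets of DUSP10, which acts on p38 and JNK, went apart. The one that stands for the gene read 173.0 and 154.0 with exosomes and 184.4 and 171.6 with PBS (log2 -0.12, SE 0.086, limma adjusted p = 0.665), and these groups overlapped. That difference was -0.21 without exosome replicate 1, -0.040 without exosome replicate 2 and -0.072 without PBS replicate 1. A dimmer one read 43.5 and 44.0 with exosomes and 30.6 and 37.0 with PBS. Its PBS values lay under the 25th percentile of their arrays, 39.3 and 39.9. Its exosome values were little above theirs, 39.1 and 38.7, so dim signal limits this probe set too. In that probe set the exosome arrays lay above the PBS arrays, with the highest difference of the 29 (log2 0.37, SE 0.11, limma adjusted p = 0.356 over 44988 probe sets). The remaining DUSP10 probe sets had log2 differences of 0.097 and -0.0036. The gene's direction therefore depends on the probe set, and as their mean it was 0.085 (limma adjusted p = 0.754).

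No Sprouty gene passed the test. SPRY1, an inhibitor of receptor tyrosine kinase signalling, read 1119 and 1151 with exosomes, against 1271 and 1308 with PBS. The gap between the groups was wider than the spread within either: 1135 ± 22.3 against 1289 ± 25.9 (SD, n = 2 each). It was 1.14-fold lower with exosomes (log2 -0.18, SE 0.049, 95% interval -0.29 to -0.073, limma adjusted p = 0.177). The other 2 SPRY1 probe sets hold the same values as each other, 471.5 and 564.8 with exosomes and 541.5 and 528.4 with PBS, and are 1 measurement. There the groups overlapped, with a difference of -0.052. With that measurement counted once, the mean of the SPRY1 probe sets had a difference of -0.12 (limma adjusted p = 0.564).

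SPRY2, often used with DUSP6 to read ERK output, has 1 probe set. It read 27.1 and 24.8 with exosomes and 27.5 and 24.05 with PBS, below the 25th percentile of every array, and among the members it was the 1 gene-level probe set that dim. The groups overlapped almost fully, with a log2 difference of 0.011 (SE 0.094, 95% interval -0.20 to 0.22, limma adjusted p = 0.990). SPRY4 read 76.2 and 91.1 with exosomes and 96.4 and 90.2 with PBS. Exosome replicate 1 lay apart from the other 3 arrays, and the difference was -0.16 (SE 0.10, limma adjusted p = 0.631), or -0.033 without that array and -0.29 without exosome replicate 2. All 3 SPRY4 probe sets were below 0, at -0.16, -0.12 and -0.10.

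Neither SPRED gene passed the test. SPRED1, the RAS inhibitor whose loss causes Legius syndrome, read 112.0 and 122.6 with exosomes and 130.9 and 128.4 with PBS (log2 -0.14, SE 0.083, limma adjusted p = 0.583). Its arrays did not overlap between groups in that probe set, but they did in 3 of its 5, and the 5 differences ran from -0.16 to 0.071. With an array left out SPRED1 stood between -0.21 and -0.080, the extremes being without exosome replicate 2 and exosome replicate 1. SPRED2 read 335.7 and 315.8 with exosomes and 361.9 and 337.6 with PBS (log2 -0.10, SE 0.070, limma adjusted p = 0.658). In SPRED2 too the direction depended on the probe set, at -0.10, -0.046 and 0.087. Its gene-level difference was -0.052 without PBS replicate 1, -0.058 without exosome replicate 2 and -0.15 without exosome replicate 1 or PBS replicate 2.

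When every probe set was tested, 0 of the 29 passed (limma, adjusted over 44988 probe sets, lowest adjusted p 0.335), against 0.258% of all. At an unadjusted p under 0.05, 2 were higher, those of DUSP5 and DUSP10 (4.73% of all probe sets), and 1 was lower, that of SPRY1 (4.14% of all). The probe set that stands for DUSP6 had an unadjusted limma p of 0.061 in this fit. Exosome and PBS arrays were fully separated in 12 of the 29, or 41.4%, against 37.7% of all probe sets. At the gene level they were separated in 5 of the 10, against 39.8% of all genes. Of the 29 differences 10 were above 0 and 19 below, and 54.2% of all probe sets were below 0.

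**Figure D2:**
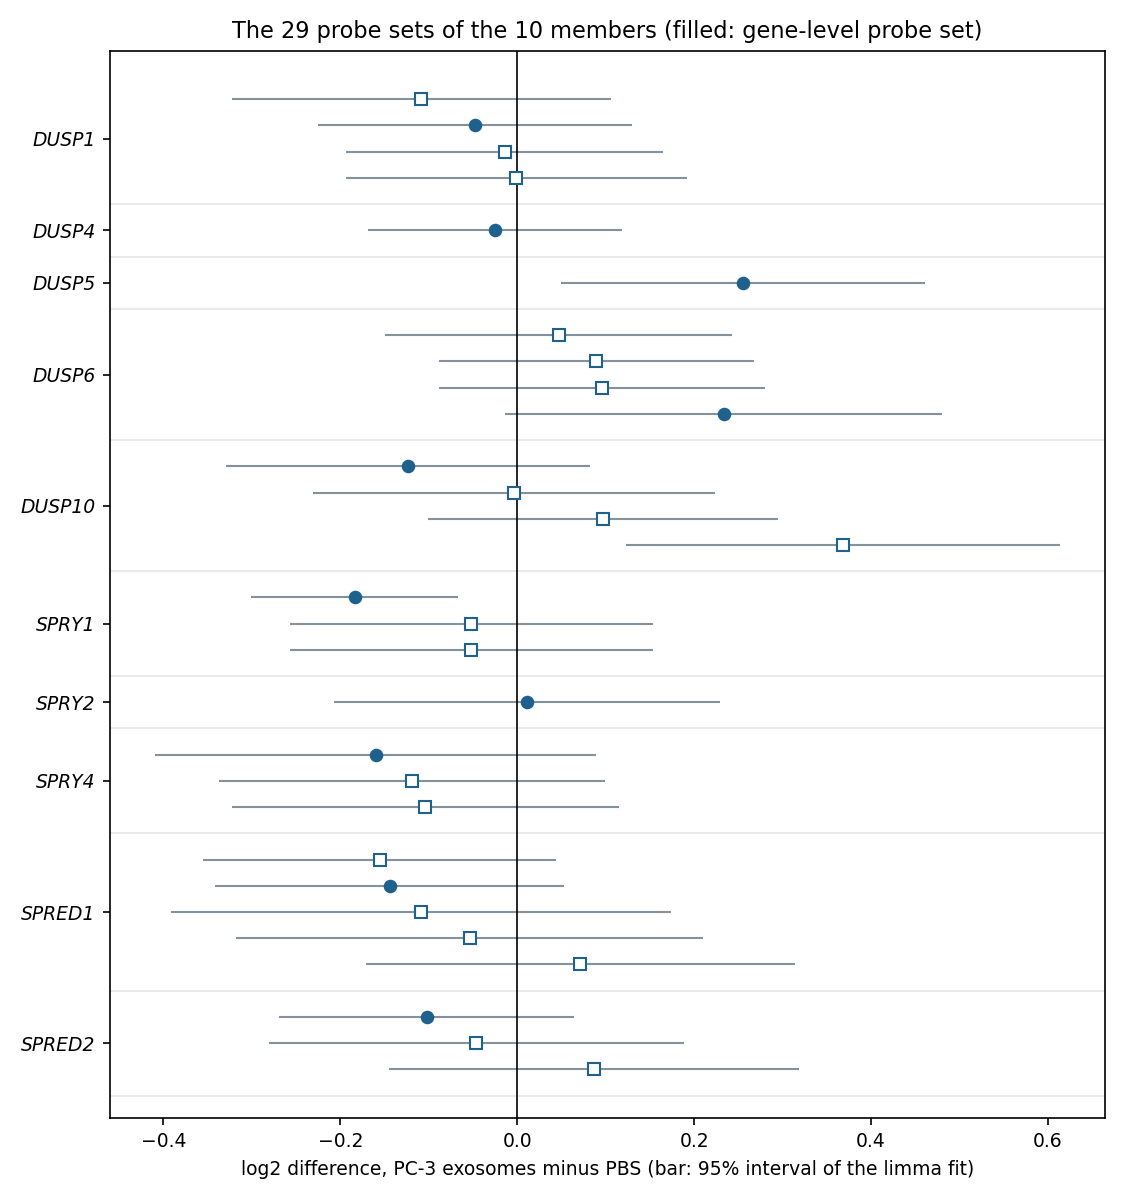
Log2 difference between PC-3 exosomes and PBS (horizontal axis) for the 29 probe sets of the 10 members, with the 95% interval of the limma fit on all probe sets. The filled circle is the probe set that stands for the gene, and open squares are its others. The DUSP10 probe sets run from -0.12 to 0.37, while the 4 of DUSP6 are all above 0 and the 3 of SPRY4 all below.

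Members were also read against control RNAs added to each sample, the poly-A spike-ins, whose mean was 0.14 higher with exosomes on the log2 scale. On that scale every difference is lower by 0.14, and the median of all genes moved to -0.15. DUSP5 and DUSP6 then stood at 0.12 and 0.094, SPRY2 changed sign to -0.13, and SPRY1 passed the threshold at -0.32 (SE 0.083, limma adjusted p = 0.012). On the spike-in scale 1 of 10 members was past the threshold, and so were 386 of all 18132 genes, 326 of them lower. The SPRY1 call was lost there without exosome replicate 1 or 2 (adjusted p = 0.103 and 0.558) or PBS replicate 2 (adjusted p = 0.535), and kept without PBS replicate 1 (adjusted p = 0.0080). The spike-in difference itself came to 0.076 with PBS replicate 2 left out and to 0.20 with PBS replicate 1 left out. Whether equal amounts of spike-in were added per amount of RNA is unknown here.

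**Figure D3:**
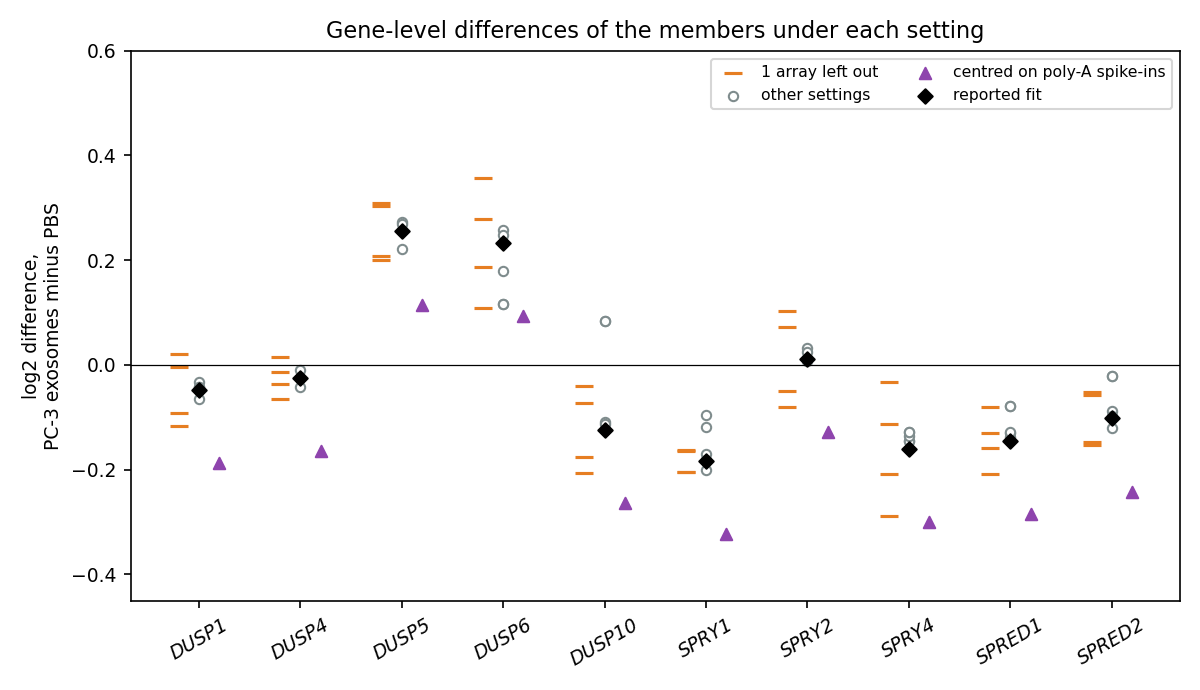
Log2 difference between PC-3 exosomes and PBS (vertical axis) for each of the 10 members under the reported fit (diamonds), with 1 array left out (dashes), centred on the poly-A spike-ins (triangles) and under the other settings (open circles). DUSP5 and DUSP6 are above 0 under every setting shown, SPRY1, SPRY4, SPRED1 and SPRED2 below 0, and DUSP1, DUSP4, DUSP10 and SPRY2 lie on both sides.

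The rest of the pathway was read from lists drawn up by what the genes do, though with earlier results of these data known. Of the remaining typical MAP kinase phosphatases, SPRY3 and SPRED3, 0 of 7 passed the limma test and 0 had an unadjusted p under 0.05. The lowest p were those of DUSP9 at 0.12 (adjusted p = 0.531) and DUSP7 at -0.12 (adjusted p = 0.680), both phosphatases that act mainly on ERK. Of the atypical DUSPs, smaller enzymes without the kinase-binding domain, 0 of 10 passed and 1 was higher at an unadjusted p under 0.05. That was DUSP3, at 0.15 (SE 0.053, limma adjusted p = 0.315), followed by DUSP14 at -0.093 (adjusted p = 0.649), which was -0.020 as the mean of its probe sets. DUSP9 had 0.20 as that mean. The medians of these lists were -0.036 and -0.014.

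In the RAS-ERK cascade itself, from adaptors to ERK and the RSK kinases, 0 of 16 measured genes passed the limma test and 2 were higher at an unadjusted p under 0.05, with a list median of 0.019. SHC1, an adaptor that links receptors to RAS, had a log2 difference of 0.16 (SE 0.040, adjusted p = 0.137). RPS6KA3, the ERK-activated kinase RSK2, had 0.23 (SE 0.072, adjusted p = 0.257), and 0.11 as the mean of its 2 probe sets. In the p38 and JNK cascades 18 of 20 listed genes were measured, MAPK14 and MAP2K7 not among them, and 0 of 18 passed. At the unadjusted threshold of 0.05, 1 was higher and 1 lower, against 5.76% and 5.16% of all genes. Of the measured genes 9 lay above 0 and 9 below. MAP2K6, which activates p38, had -0.32 (SE 0.084, limma adjusted p = 0.177), and MAPK12, p38 gamma, had 0.22 (SE 0.067, limma adjusted p = 0.234). As the mean of their probe sets MAP2K6 had -0.18 and MAPK12 0.013. On the spike-in scale, where 326 of 18132 genes were called lower, MAP2K6 was past the threshold at -0.46 (limma adjusted p = 0.027).

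Transcripts induced by ERK gave 0 of 18 past the limma threshold, a median of 0.012, and 2 higher and 0 lower at the unadjusted threshold. These were MCL1, a survival factor of the BCL2 family, at 0.14 (SE 0.048, adjusted p = 0.317) and MYC at 0.12 (SE 0.048, adjusted p = 0.404), which turned to -0.0012 and -0.021 on the spike-in scale.

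Among other inhibitors of RAS and ERK signalling 1 of 12 measured genes passed, as higher, against 0.700% of all genes called higher. At an unadjusted p under 0.05, 2 were higher and 0 lower, against 5.76% and 5.16% of all genes. Since earlier results of these data were known when the list was drawn up, these counts cannot speak for the class. ERRFI1, which binds and blocks the EGF receptor family and is itself induced by signalling, read 1611 and 1761 with exosomes and 1282 and 1198 with PBS. Its exosome arrays lay well above the PBS arrays, at 1686 ± 106 against 1240 ± 59.2 (SD, n = 2 each). It rose 1.36-fold (log2 0.44, SE 0.059, limma adjusted p = 0.013) and has 1 probe set. With an array left out, ERRFI1 passed only in the absence of exosome replicate 1 (adjusted p = 0.033), and missed the threshold without exosome replicate 2 (adjusted p = 0.174), PBS replicate 1 (adjusted p = 0.068) or PBS replicate 2 (adjusted p = 0.137), at log2 0.38 to 0.51. It also missed the threshold with the replicate number as a block (adjusted p = 0.191) and without a trend in the variance model (adjusted p = 0.148). The list's median was 0.015.

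**Figure D4:**
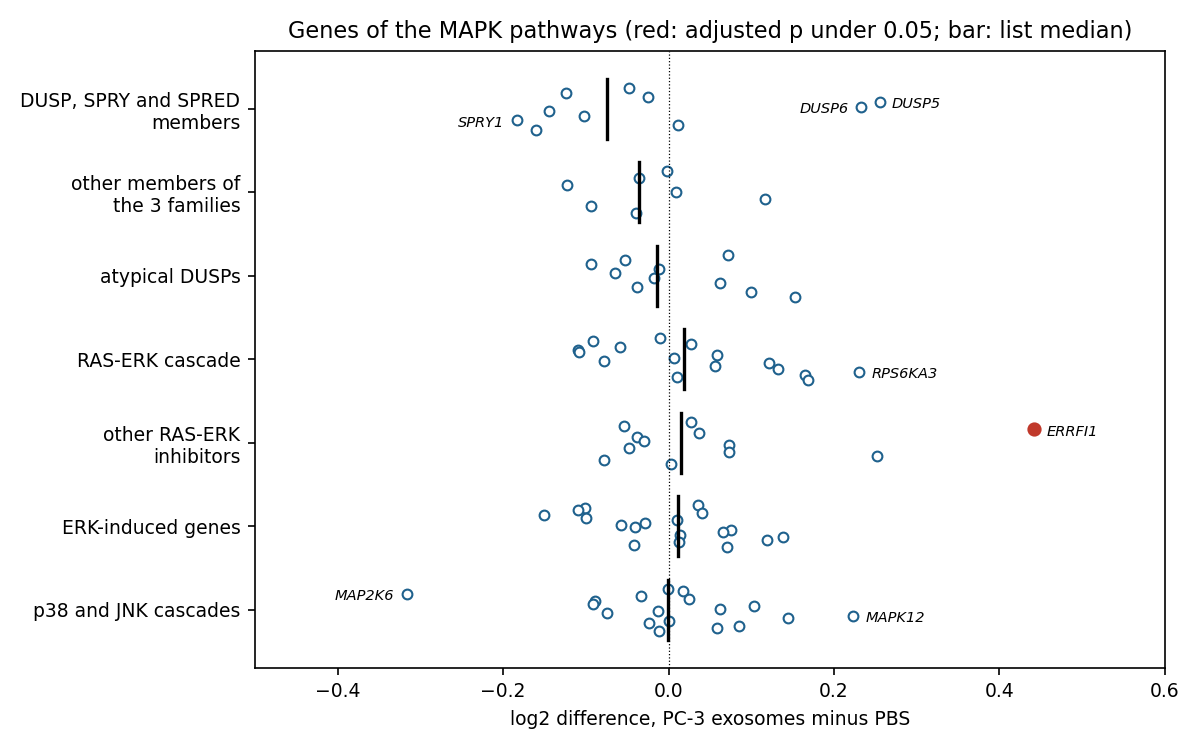
Log2 difference between PC-3 exosomes and PBS (horizontal axis) of each measured gene in the members' list and in 6 other lists of the MAP kinase pathways. Bars are list medians, which lie between -0.075 and 0.019, and the filled red point, ERRFI1 at 0.44, is the only gene of these lists past an adjusted p of 0.05 in the reported fit.

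The labels were checked against marker genes. The label on RNA extraction speaks of brain tissue, while all sample labels name LNCaP. The 6 measured prostate luminal markers, KLK3 (PSA) among them, summed to an intensity of 39353 to 39809 with exosomes and 39063 to 40154 with PBS. The 8 markers of PC-3, the exosome donor, summed to 903 to 934 with exosomes and 956 to 983 with PBS, and 3 of them were above 0 and 5 below. That lower sum came mainly from VIM, at a mean of 525 against 551, and LGALS1, at 124 against 144. The 7 measured brain markers summed to 1681 to 1692 with exosomes and 1561 to 1625 with PBS, and 4 of them were above 0 and 3 below. The higher sum came mainly from MBP, at a mean of 867 against 764, while NEFL went the other way, at 278 against 309. No gene of these marker lists was past the limma threshold (0 of 21, with 2 higher and 2 lower at the unadjusted threshold), and what part MBP's difference has in the results was not tested. In RNA of whole cultures, fewer cells with a transcript and less of it per cell cannot be told apart.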

How the data were processed

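The authors deposited 1 normalized intensity per probe set, on a linear scale. MAS5 and RMA are named per the submitters' processing notes, without role, order or version; the sources used here give no build or annotation version. Of 49395 probe sets, 102 were controls, 1832 named several genes and 2473 none, and these were left out. Array medians were 110.8 to 112.4, so the arrays were not normalized further; their number limits the precision.

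Tests used log2(value + 1), which makes a fold a ratio of values plus 1. The probe set with the highest mean stood for each gene. Differences, PC-3 exosomes minus PBS, were fitted in limma 3.58.1 under R 4.3.3 (lmFit, eBayes with a trend, two-sided; 2 residual and 6.99 prior degrees of freedom), on all genes and again on all single-gene probe sets, and the fit was tested on simulated data. Figures were drawn with matplotlib 3.10.9. Members, lists and alternatives were chosen with earlier results of these data known. All members were named; from each other list the text names up to 4 genes past the threshold, or else the 2 with the smallest p. Alternatives were other normalizations, centrings and pseudocounts, a filter on low values, other variance models, the mean of probe sets, the replicate number as a block, a threshold of 0.1 and leaving out each array. SPRY1 on the spike-in scale with an array left out, and the mean with identical probe sets counted once, were added after seeing the data.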

Additional observations from a re-analysis of the deposited data

How the results depend on the processing

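The count of members past the threshold was 0 under the reported fit and stayed 0, for genes and for probe sets, under each alternative except centring on the poly-A spike-ins, which gave 1 gene and 1 probe set, both SPRY1; with an array left out it was 0 to 0. Of 138 values of members under alternatives, 129 kept their direction and side of the threshold, 7 changed sign and 2 passed it (SPRY1 on the spike-in scale at -0.32, and at -0.41 there without PBS replicate 1; -0.41 to -0.24 over the 4 arrays left out). Many of these values could not change sign. The filter, the replicate block and the other variance models leave each difference as it was, as do probe-set means for members with 1 probe set. The sign changes were SPRY2 on the spike-in scale (-0.13), DUSP10 as the mean of its probe sets (0.085, also with identical probe sets counted once), and, with an array left out, DUSP1 (-0.12 to 0.021), DUSP4 (-0.064 to 0.014) and SPRY2 (-0.081 to 0.10, 2 of the 7). On the spike-in scale DUSP9 (-0.022), MCL1 (-0.0012) and MYC (-0.021) also changed sign. The spike-in sign changes follow from the shift of 0.14. Those of DUSP10 follow from averaging probe sets that went apart, and the others came with an array left out. Why the probe sets or the arrays differ was not tested. ERRFI1 was past the threshold in 9 of 14 alternatives, and missed it at an unchanged 0.44 without a trend (adjusted p = 0.148).

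The labels do not say what replicate numbers 1 and 2 share, and the deviations of same-numbered arrays had a correlation of -0.040. With the replicate block, which leaves 1 residual degree of freedom, 0 members passed, SPRY1 had an adjusted p of 0.342 and ERRFI1 0.191, and 2 genes and 0 probe sets in all passed.

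The count over all genes, 161, became 249 with quantile normalization, 297 of 9066 with the filter, 21 without a trend, 33 to 47 with an array left out and 386 on the spike-in scale, where 15.5% of calls were higher in place of 78.9%. Over all probe sets 116 became 201, 219 of 22494, 10, 0 to 4 and 871, with 14.1% higher in place of 92.2%. The filter left 4 members and 9 of their probe sets. Dim signal limits 7 of the 29 probe sets, under the 25th percentile on every array. The DUSP10 probe set with the highest difference of the 29 was under it on the PBS arrays only.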
